A study of Mus musculus with 5 samples.

Results

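The epidermal differentiation complex is a cluster of genes on mouse chromosome 3, many of whose products build the cornified layer of the skin. Its members were taken as the protein-coding RefSeq genes of that chromosome with symbols starting in Lce, Sprr or S100a, together with Flg, Flg2, Hrnr, Rptn, Tchh, Tchhl1, Crnn, Lor, Ivl, Smcp, Kprp, Crct1, Lelp1, Pglyrp3 and Pglyrp4. This gave 65 of the 21631 protein-coding genes on the chromosomes of the deposited data, and 65 of the 983 on chromosome 3. They lay between 90511034 and 93564645 of chromosome 3 in mm10 (GRCm38), a span of 3.05 Mb that also held 5 other protein-coding genes.

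Basal epidermal progenitors were sorted at postnatal day 71 from adult back skin of mice labelled as controls. Their chromatin was immunoprecipitated with an antibody to H2AK119ub (2 libraries) or to H3K27me3 (2 libraries), and 1 input library was made. All mice carried K14-RFP, which labels basal keratinocytes, and K10-H2B-GFP, which labels suprabasal ones, and the sorted cells were Sca1-positive, high in RFP and GFP-negative. Each mark has a single list of called regions, with 33155 entries for H2AK119ub and 15102 for H3K27me3. The lists hold no value per library, so depth is unknown and no spread between replicates or test over samples could be had. A called region does not tell how many of the sorted cells carried the mark, and a gene without one may carry it below the caller's threshold.

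Keratinocytes leave the basal layer, stop dividing and switch on many genes of this complex as they move outward. Not every member is such a gene, as with Smcp, a sperm mitochondrial protein gene. S100a genes encode small calcium-binding proteins with EF-hands. The fused S100 genes (Flg, Flg2, Hrnr, Rptn, Tchh, Tchhl1 and Crnn) join such a domain to long repeats, and Lor, Ivl, Sprr and Lce genes encode proteins that are crosslinked into the cornified envelope. H2AK119ub is laid down by Polycomb repressive complex 1 and H3K27me3 by Polycomb repressive complex 2, both known for keeping genes of other lineages or later stages silent.

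Most members carried neither mark at their ends, and H3K27me3 was found at 3 places only. A gene was counted as marked when a region shared at least 1 bp with the stretch within 1 kb of either annotated end. H2AK119ub was found at 20 of 65 members (30.8%), beside 57.1% of all protein-coding genes and 51.6% of those on chromosome 3. H3K27me3 was found at 3 of 65 members (4.62%), beside 24.7% of all protein-coding genes and 22% of those on chromosome 3. Lor alone carried both marks (1 member, 1.54%, beside 21.1% of all genes). H2AK119ub alone was found at 19 members (29.2%, beside 36%), H3K27me3 alone at 2 (3.08%, beside 3.58%) and neither mark at 43 (66.2%, beside 39.4%). Neighbouring members share regions and are not independent, so these shares describe the lists and carry no interval.

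Members are short genes, with a median length of 1989 bp beside 17329 bp for all protein-coding genes, and 44 of the 65 were at most 5 kb long. Among all genes of at most 5 kb, 42.5% had H2AK119ub and 17.9% had H3K27me3 at an end, and 54.4% had neither. The shares among all 65 members were thus also below those of short genes for both marks. This difference was not tested, and the shares of the 44 short members alone were not computed.

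**Figure D1:**
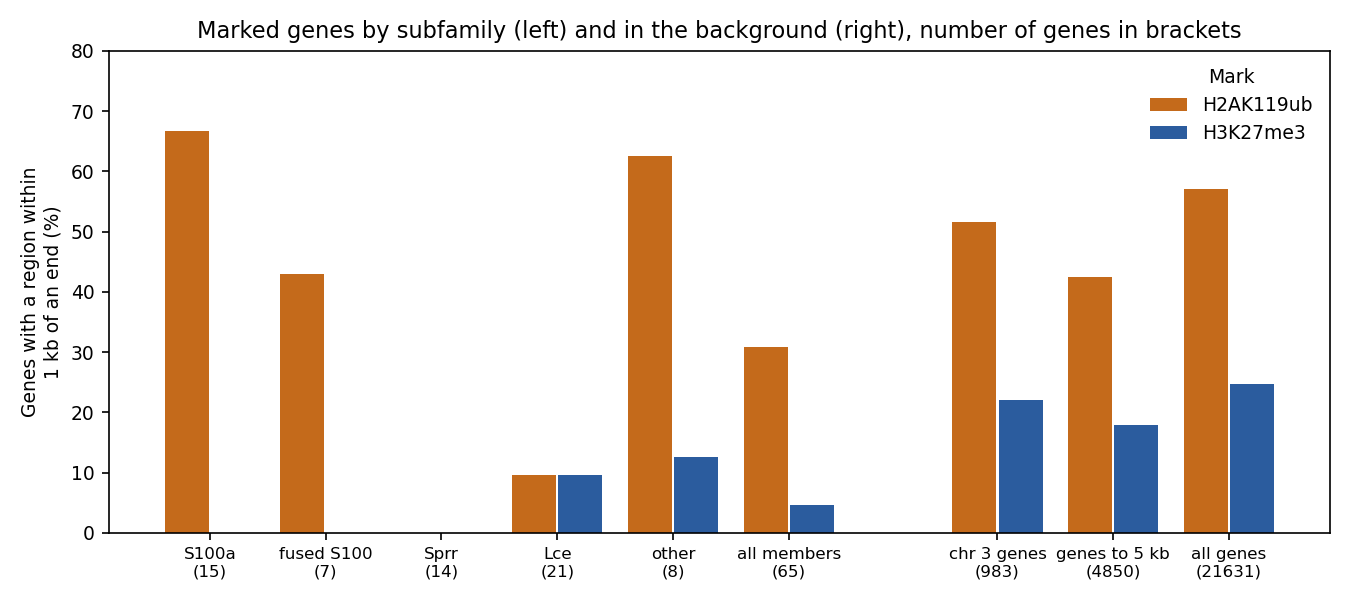
Percentage of genes with a called region within 1 kb of an annotated end, for H2AK119ub and H3K27me3, in each subfamily and in all 65 members (left), and in chromosome 3 genes, genes up to 5 kb and all protein-coding genes (right). S100a genes reach 66.7% for H2AK119ub, Sprr genes are at 0 for both marks, and H3K27me3 appears only among Lce and other members.

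The sequences upstream of 9 members illustrate each class of marking. They are the bases before the RefSeq start (GRCm38.p6), 5′ to 3′ on the gene's strand, without any annotated part of the gene. They run up to the start except at Ivl. Capitals mark CpG dinucleotides, the AP-1 motif TGANTCA and the TATA motif TATAAA, searched on both strands.
Lor, both marks, chr3:92083143-92083392, minus strand: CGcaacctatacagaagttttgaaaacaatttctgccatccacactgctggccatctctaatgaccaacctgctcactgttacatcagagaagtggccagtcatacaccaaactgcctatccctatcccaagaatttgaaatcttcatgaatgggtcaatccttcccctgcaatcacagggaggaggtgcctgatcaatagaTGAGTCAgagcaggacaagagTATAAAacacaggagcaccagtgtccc
Lce3b, H3K27me3 alone, chr3:92932729-92932978, plus strand: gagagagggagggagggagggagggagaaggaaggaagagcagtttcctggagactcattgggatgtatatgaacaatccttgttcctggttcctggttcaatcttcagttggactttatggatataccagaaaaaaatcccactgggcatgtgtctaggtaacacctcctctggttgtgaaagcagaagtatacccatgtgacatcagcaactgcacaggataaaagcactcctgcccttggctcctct
Lce3c, neither mark, chr3:92944236-92944485, plus strand: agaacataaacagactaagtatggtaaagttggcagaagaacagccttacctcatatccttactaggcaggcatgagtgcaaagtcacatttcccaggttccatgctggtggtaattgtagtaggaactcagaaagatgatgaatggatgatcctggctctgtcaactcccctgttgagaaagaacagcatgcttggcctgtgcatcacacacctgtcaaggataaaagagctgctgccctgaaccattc
Lce3d, H3K27me3 alone, chr3:92957140-92957389, plus strand: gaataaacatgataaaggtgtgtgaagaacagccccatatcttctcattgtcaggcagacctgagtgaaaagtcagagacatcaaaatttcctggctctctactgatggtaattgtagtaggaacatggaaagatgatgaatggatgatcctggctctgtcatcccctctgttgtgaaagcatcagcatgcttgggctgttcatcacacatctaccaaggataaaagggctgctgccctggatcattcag
Ivl, H2AK119ub alone, chr3:92573791-92573985, minus strand: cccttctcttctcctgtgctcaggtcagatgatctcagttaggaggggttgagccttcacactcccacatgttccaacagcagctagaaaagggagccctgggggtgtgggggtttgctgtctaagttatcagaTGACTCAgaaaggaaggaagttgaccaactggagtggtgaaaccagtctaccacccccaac
S100a6, H2AK119ub alone, chr3:90612644-90612893, plus strand: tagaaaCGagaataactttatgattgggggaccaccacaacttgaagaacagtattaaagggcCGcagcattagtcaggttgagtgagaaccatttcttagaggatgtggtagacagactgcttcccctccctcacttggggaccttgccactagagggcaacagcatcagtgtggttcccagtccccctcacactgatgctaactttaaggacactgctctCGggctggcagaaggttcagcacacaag
S100a11, neither mark, chr3:93520246-93520495, plus strand: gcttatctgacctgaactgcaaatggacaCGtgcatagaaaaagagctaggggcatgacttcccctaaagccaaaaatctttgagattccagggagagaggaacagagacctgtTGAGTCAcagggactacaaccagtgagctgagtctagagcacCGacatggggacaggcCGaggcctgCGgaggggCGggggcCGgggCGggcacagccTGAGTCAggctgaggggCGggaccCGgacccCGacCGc
Flg, neither mark, chr3:93273296-93273545, plus strand: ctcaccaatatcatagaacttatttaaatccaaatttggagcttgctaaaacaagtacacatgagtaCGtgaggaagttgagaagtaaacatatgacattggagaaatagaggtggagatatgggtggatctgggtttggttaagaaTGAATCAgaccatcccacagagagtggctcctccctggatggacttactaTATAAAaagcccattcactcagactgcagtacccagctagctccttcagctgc
Sprr2d, neither mark, chr3:92338890-92339139, plus strand: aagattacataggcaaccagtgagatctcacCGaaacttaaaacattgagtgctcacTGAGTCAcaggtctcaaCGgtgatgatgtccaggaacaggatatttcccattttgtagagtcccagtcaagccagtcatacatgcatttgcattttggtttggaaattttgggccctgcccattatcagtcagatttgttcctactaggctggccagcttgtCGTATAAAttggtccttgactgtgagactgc

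Lor has its AP-1 motif starting 48 bases and its TATA motif starting 27 bases before the transcript start, with 1 CpG in the 250 bases shown. Lce3b, Lce3c and Lce3d have no CpG, AP-1 or TATA match in the 250 bases shown, although the first and last of them lie in H3K27me3 regions and the middle one does not. The promoter windows of Lce3c and Lce3d (300 bases) were 77.0% identical by edit distance, while those of Lce3b and Lce3d were 56.3% identical. S100a11 shows 11 CpG and 2 AP-1 motifs, the most CpG of the sequences shown, and carries neither mark. Ivl is shown over 195 bases only, because the annotated gene extends past that start. The bases nearest to its start are therefore left out. The 300-base window of Ivl holds a TATA motif that is not among the bases shown.

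Of the 15 S100a genes, 10 carried H2AK119ub (66.7%), and these were the 10 at the lower-coordinate end of the complex, from S100a1 to S100a7a. Among all protein-coding genes 57.1% carried it, so that this share lies near the background, and the 10 genes share regions. None of the 15 carried H3K27me3, beside 24.7% of all genes. The first region ran from 90510895 to 90518166 over S100a1, the S100 of heart and muscle, and the start of S100a13. The widest region of the complex, 27.3 kb at chr3:90586636-90613977, covered S100a2, S100a4 and S100a5 whole, together with the upper end of the 42.4 kb annotated span of S100a3 and 71.3% of S100a6 (calcyclin). The annotated span of S100a3 contains that of S100a2, so these calls are not separate. S100a4 encodes metastasin, a marker of motile mesenchymal cells. S100a14 and S100a16 were covered over 100% of their length by regions of 9.25 kb and 11.8 kb, and S100a7a, a relative of human psoriasin, over 92.2% by one of 14.0 kb.

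The H2AK119ub run stopped next to S100a8. This gene and S100a9 encode the subunits of calprotectin, an antimicrobial complex of neutrophils and inflamed epidermis. S100a8 lay 2.62 kb above the region over S100a7a, and S100a9 lay 10.8 kb from its nearest region. S100a7l2 stood alone in a gene-poor stretch, 177 kb from the nearest H2AK119ub region. At the other end of the complex, S100a11 and S100a10, the partner of annexin A2, had neither mark at their ends. Regions of 5.24 kb and 1.5 kb lay between these last genes, 5.47 kb from S100a11 and 9.24 kb from S100a10. S100a7l2, S100a8, S100a9, S100a10 and S100a11 were thus the unmarked S100a genes.

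Coverage of the marked S100a stretch was set beside that of its flank. H2AK119ub regions covered 51.5% of the 0.23 Mb from S100a1 to Pglyrp4, beside 52.7% of the 1 Mb below the complex, 10.9% of chromosome 3 and 17.5% of the autosomes. The flank was not even: its 5 bins of 100 kb nearest to the complex were covered over 12.6% to 41.7%, and the 5 farther bins over 45.5% to 94.3%. H3K27me3 covered none of the S100a1 to Pglyrp4 stretch and 13.6% of the 1 Mb below it. The nearest H3K27me3 region lay 44.7 kb below S100a1, at Npr1, a natriuretic peptide receptor gene that carried both marks. Between them, Ilf2, Snapin and Chtop had neither mark at their ends, and Ints3 on the far side of Npr1 had H2AK119ub alone, in a region of 39.6 kb. Above the complex, the 5 nearest protein-coding genes, Tdpoz1 to Tdpoz5, had neither mark, and the nearest of them lay 54.7 kb from an H2AK119ub region.

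**Figure D2:**
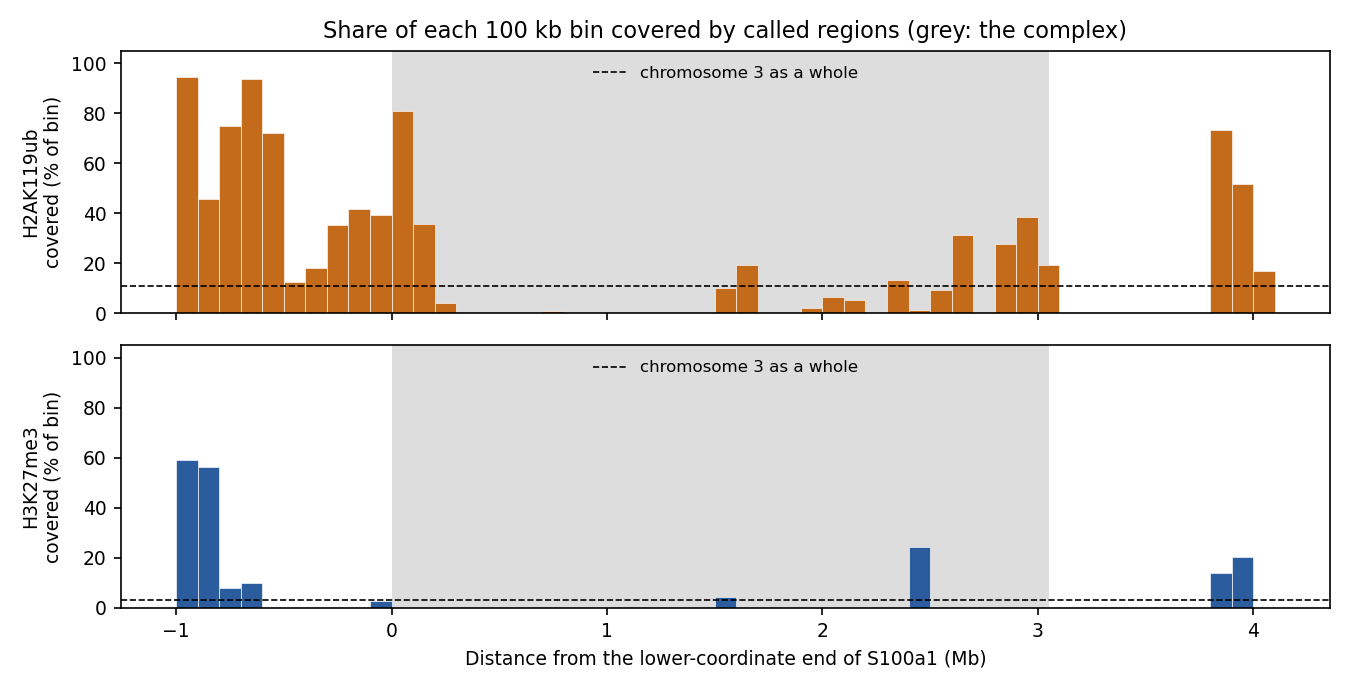
Percentage of each 100 kb bin covered by called regions, for H2AK119ub (upper) and H3K27me3 (lower), along the complex (grey) and 1 Mb on each side; the dashed line is the value for chromosome 3 (10.9% and 3.20%). The highest H2AK119ub bin of the complex is its first, at 81.0%, and the highest H3K27me3 bin, at 24.5%, starts 2.4 Mb from S100a1.

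Over the whole complex, 40 H2AK119ub regions covered 292 kb, or 9.58% of the span, and 3 H3K27me3 regions covered 28.6 kb, or 0.938%. Chromosome 3 as a whole had 10.9% and 3.20%. The H3K27me3 value depends on the limits of the complex and was 2.06% between Lor and Tchhl1, without the outer S100a and Pglyrp genes. The median region width was 5.43 kb for H2AK119ub, beside 7.15 kb on chromosome 3. Of 31 bins of 100 kb, 15 held no H2AK119ub and 29 held no H3K27me3. Of the H2AK119ub regions, 19 overlapped a member and 21 lay between members, whereas each of the 3 H3K27me3 regions overlapped 1 member. The 1.27 Mb between Pglyrp4 and Pglyrp3, with 1 member and 2 other genes, held 2 H2AK119ub regions that covered 0.247% of it. Pglyrp3 and Pglyrp4 encode secreted peptidoglycan recognition proteins that kill bacteria. Both had neither mark at their ends, with a 0.924 kb H2AK119ub region inside Pglyrp4.

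Several of the wider H2AK119ub regions between members flanked the fused S100 genes. A pair of 14.0 kb and 7.47 kb lay below Crnn, the nearer of them 9.15 kb away. Regions of 1.77 kb, 12.4 kb and 9.78 kb stood between Hrnr and Rptn, one of 4.7 kb between Rptn and Tchh, and one of 10.7 kb lay 17.8 kb below S100a11. At the other end, regions of 9.22 kb, 4.89 kb and 5.61 kb lay between S100a6 and Pglyrp4 without meeting a member. Beyond Lelp1, regions of 11.5 kb, 3.15 kb and 2.04 kb led up to the Sprr genes, and one of 3.07 kb closed that stretch on its far side. H2AK119ub thus lay on both sides of the Sprr genes and not among them.

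**Figure D3:**
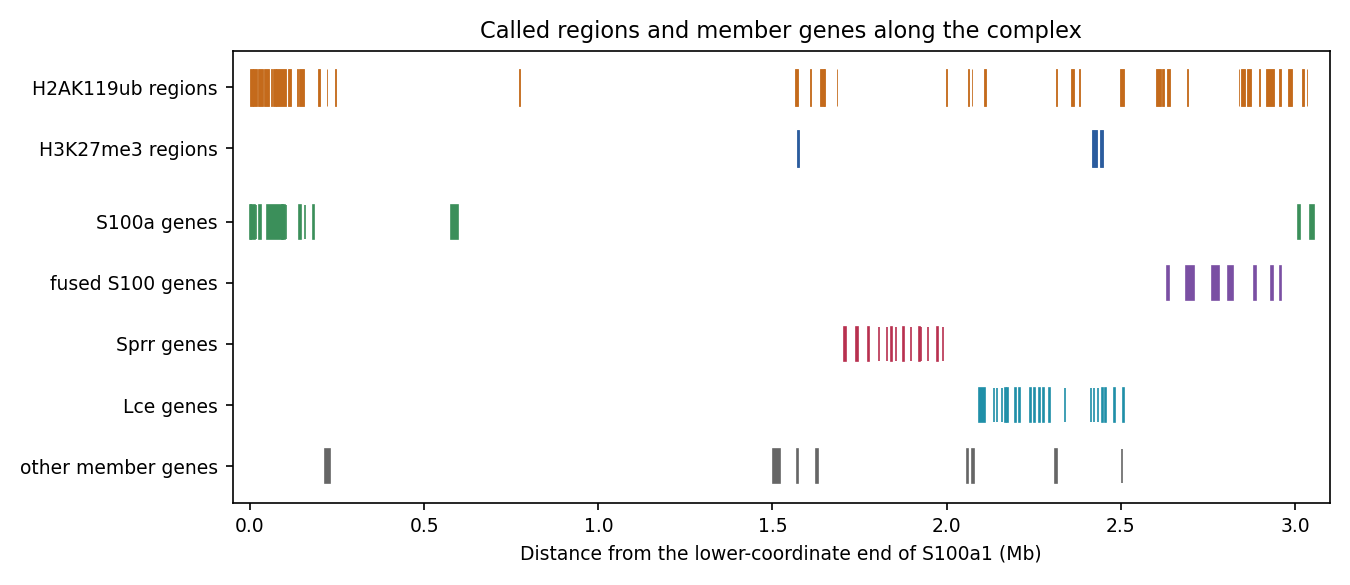
Called regions of both marks (upper 2 rows) and the 65 members by subfamily (lower 5 rows), drawn to scale against the distance from the lower-coordinate end of S100a1 in Mb. The Sprr genes fall in a stretch without regions, and the 3 H3K27me3 regions lie at Lor and among the Lce3 genes.

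Lor was the only member where the marks met. It encodes loricrin, the main protein of the cornified envelope, and is read on the minus strand. The H3K27me3 region at chr3:92081715-92085858 was 4.14 kb wide, reached 2.72 kb upstream of the start and ended 1.43 kb inside the gene. The H2AK119ub region at chr3:92074507-92084646 was 10.1 kb wide, covered 100% of the gene, and reached 1.5 kb upstream and 5.76 kb downstream. The regions shared 2.93 kb across the transcript start, and this was the whole overlap of the marks in the complex. The H3K27me3 region was therefore confined to the start side of the gene, while H2AK119ub lay over all of it.

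The Lce3 genes formed the only other place with H3K27me3, and there H2AK119ub was absent. Lce3 proteins are late envelope proteins that are induced in wounded and psoriatic skin in humans. A 14.0 kb region at chr3:92928531-92942511 lay over Lce3b, from 4.45 kb upstream to 8.41 kb downstream, and a 10.5 kb region at chr3:92950291-92960804 lay over Lce3d, from 7.10 kb upstream to 2.23 kb downstream. The 7.78 kb between these regions held the whole of Lce3c, which lay 1.98 kb from the nearer one. Lce3a was 2.3 kb, Lce3e 6.26 kb and Lce3f 31.4 kb from H3K27me3. The H3K27me3 regions covered 35.9% of the 68.1 kb from Lce3a to Lce3f, while the nearest H2AK119ub regions were 33.4 kb and 48.9 kb away from them. On the autosomes 28.7% of 12952 H3K27me3 regions met no H2AK119ub region, and on chromosome 3 35.1% of 516 did not, so that such regions were common in these lists.

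**Figure D4:**
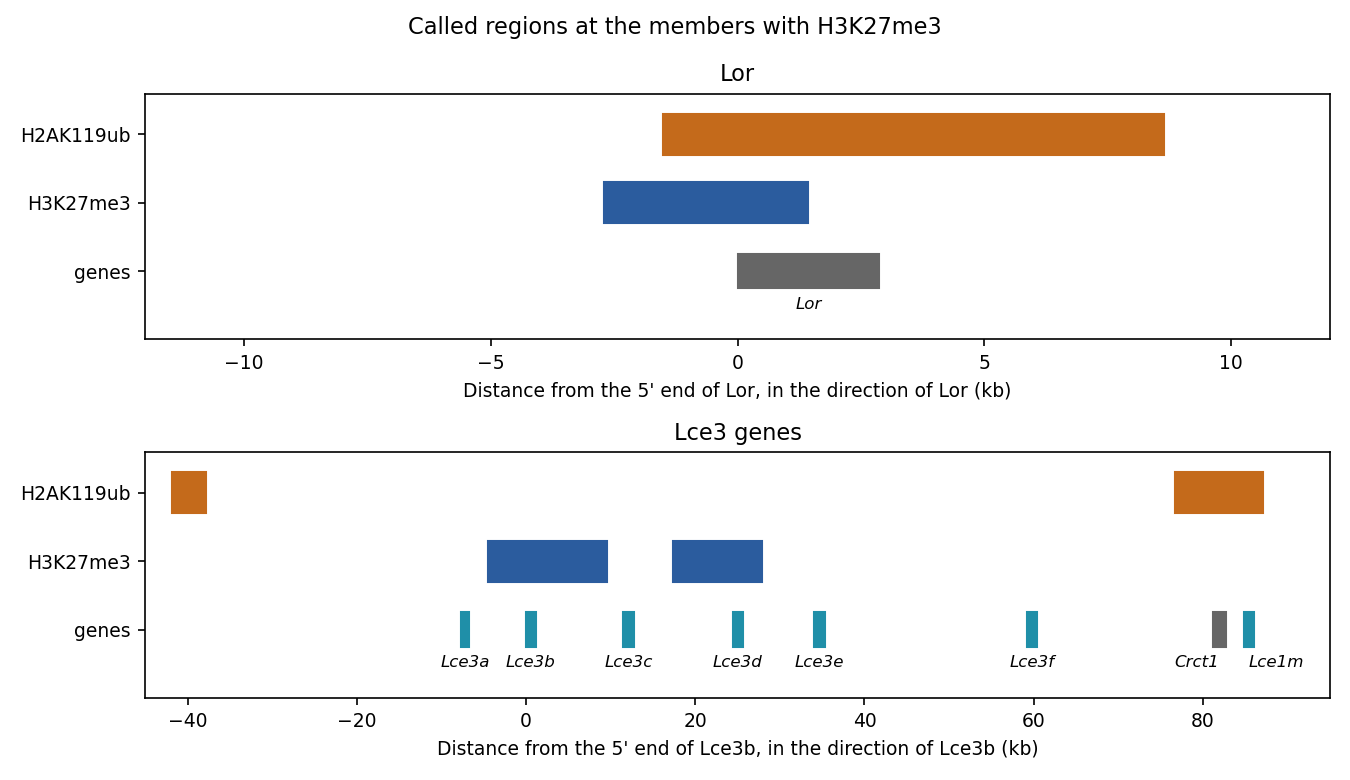
Called regions and genes at Lor (upper) and at the Lce3 genes (lower), against the distance in kb from the 5′ end of Lor and of Lce3b. At Lor the 10.1 kb H2AK119ub and 4.14 kb H3K27me3 regions overlap at the start of the gene; at Lce3b and Lce3d the H3K27me3 regions of 14.0 kb and 10.5 kb stand without H2AK119ub.

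The other Lce genes were nearly free of both marks, so that of all 21 Lce genes 2 (9.52%) had each mark and 17 had neither, beside 57.1% of all protein-coding genes with H2AK119ub and 24.7% with H3K27me3. Of 14 Lce1 genes, 13 had neither, and Lce1m had H2AK119ub alone, in a 10.4 kb region at chr3:93009696-93020109 that it shares with Crct1, a gene for a small cysteine-rich protein. Lce6a had H2AK119ub alone, in a 5.12 kb region that reached 2.50 kb upstream and 2.63 kb into the gene. The 12 genes from Lce1a1 to Lce1k lay together in a 199.9 kb stretch without H2AK119ub, at distances of 16.2 kb (Lce1k) to 94.5 kb (Lce1f) from the nearest region. In this order along the chromosome they were Lce1a1, Lce1b, Lce1a2, Lce1c, Lce1d, Lce1e, Lce1f, Lce1g, Lce1h, Lce1i, Lce1j and Lce1k. Lce1l, beyond Kprp, lay 17.1 kb from H2AK119ub and 77.2 kb from H3K27me3.

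All 14 Sprr genes carried neither mark, beside 39.4% of all protein-coding genes and 54.4% of those up to 5 kb. They lie in 1 stretch without regions and are not independent. These genes encode small proline-rich envelope proteins that are induced by stress and injury. The whole subfamily, Sprr2a1, Sprr2a2, Sprr2a3, Sprr2b, Sprr2d, Sprr2e, Sprr2f, Sprr2h, Sprr2i, Sprr2k, Sprr1b, Sprr3, Sprr1a and Sprr4, sat in a single H2AK119ub-free stretch of 311 kb at chr3:92197439-92508888. No other such stretch on chromosome 3 held as many whole protein-coding genes, out of 1469, and the stretch with the 12 Lce1 genes came next. On the autosomes the Sprr stretch stood at place 62 of 30070 by gene number, with ties given the lowest place. By length it stood only at place 84 on chromosome 3 and 1024 on the autosomes. The stretch with the 12 Lce1 genes stood at places 114 and 1566 by length. Distances to the nearest H2AK119ub region ran from 8.40 kb at Sprr4 to 155 kb at Sprr2e, and those to H3K27me3 from 130 kb at Sprr2a1 to 414 kb at Sprr4. An H3K27me3-free stretch of 843 kb, from Lor to the region over Lce3b, held 33 members and 2 other genes, and none of the 515 such stretches on chromosome 3 held more genes. By length this stretch stood at place 45 on chromosome 3 and 593 on the autosomes. Sprr2a1 and Sprr2a2 could share reads. Their 300-base promoter windows were 100% identical, while the 45 pairs of Sprr2 windows ranged from 45.3% to that value with a median of 61.7%. How reads with more than 1 match were treated is not given in the sources used here, and its part in the lack of regions here was not tested.

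The fused S100 genes were split, with H2AK119ub at 3 of 7 (42.9%) and H3K27me3 at none, beside 57.1% and 24.7% of all protein-coding genes. The shares of genes up to 5 kb were 42.5% and 17.9%, but these are not of like length. The fused S100 genes have a median length of 6748 bp. Tchh, which encodes trichohyalin of the hair follicle's inner root sheath, lay whole in a 23.3 kb region that reached 13.8 kb upstream. Crnn, the gene for cornulin, was covered over 98.5% of its length by a 7.53 kb region that began just inside its start. Tchhl1 had a 3.39 kb region over its start. Flg, which encodes profilaggrin, the source of keratin-aggregating filaggrin and of natural moisturising factors, had neither mark and lay 56 kb from the nearest H2AK119ub region. Hrnr (hornerin) was 16.1 kb and Rptn (repetin) 7.94 kb away. Flg2 had neither mark at its ends, with a 2.22 kb H2AK119ub region inside the gene that covered 9.21% of it. H3K27me3 lay between 184 kb (Crnn) and 508 kb (Tchhl1) from these genes.

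Of the 8 remaining members, Lor, Ivl, Smcp, Kprp and Crct1 had H2AK119ub (62.5%), a share near the 57.1% of all protein-coding genes. Ivl encodes involucrin, an early scaffold of the envelope. Its region at chr3:92571007-92574462 was 3.46 kb wide and nearly matched the gene, covering 96.3% of its length and reaching 0.672 kb upstream. Kprp, a keratinocyte proline-rich protein gene, had a 2.57 kb region that lay wholly within the gene. Smcp, a sperm mitochondrial protein gene within the complex, had a 1.91 kb region at its 3′ end. Lelp1 had neither mark and lay 3.69 kb from H2AK119ub. The region was at least as long as the gene, covering 100% of it, at 10 of the 20 H2AK119ub-marked members, among them Lor, Crct1, Lce1m and Tchh. S100a2, S100a4 and S100a5 share 1 such region, and Crct1 and Lce1m share another. Members have a median length of 1989 bp, so a region of a few kb can cover one whole. The share among all marked genes was not computed. Of the other genes inside the complex, 2310050C09Rik had H2AK119ub alone (6.94 kb), while Prr9, Tdpoz8, Gm35185 and Gm36323 had neither mark.

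RefSeq start sites were listed for 57 of the 65 members, and the same comparison was made at those starts. H2AK119ub lay within 1 kb of a start at 15 of 57 members (26.3%), beside 50.9% of 17274 protein-coding genes, and H3K27me3 at 3 of 57 (5.26%), beside 21.6%. Among the 16 H2AK119ub-marked members with a known strand, 13 were marked at both ends, 2 at the 5′ end only and 1, Smcp, at the 3′ end only. Of all 65 members 17 (26.2%) had H2AK119ub at both ends, beside 7385 of 21631 protein-coding genes (34.1%). Members have a median length of 1989 bp, so the windows of both ends often meet and 1 region can count at each.

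Promoter windows of the members held few CpG dinucleotides, the sequence that Polycomb marks at promoters are known to follow in mammals. In 61 windows of 300 bases (250 before and 50 after a start) the median was 1 CpG, with a range of 0 to 15, beside a median of 13 in 21045 windows of all protein-coding genes. The GC content had a median of 46.7%, beside 56.7%. The highest counts were all at S100a genes, with 15 CpG at S100a11, which had neither mark, 14 at S100a13 and 11 at S100a1, which share a region and overlap in their windows. Windows of members that held H2AK119ub had a median of 2 CpG (18 windows), and those without it had a median of 1 (43 windows). For all protein-coding genes the medians were 15 and 12. The 18 marked windows came from 14 genes, and 12 of them were S100a windows. All 16 S100a windows, marked or not, had a median of 3 CpG. The 3 members' windows with H3K27me3, at Lor, Lce3b and Lce3d, had 1 CpG each. Among all protein-coding windows the median was 13 CpG both with and without H3K27me3.

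**Figure D5:**
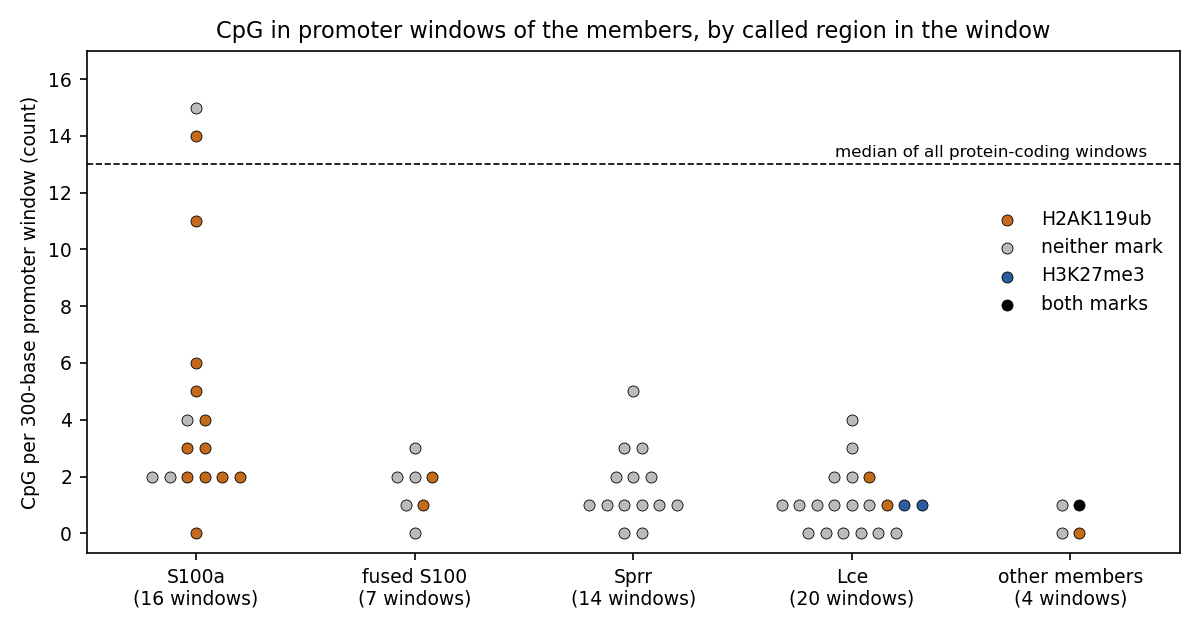
Number of CpG dinucleotides in each 300-base promoter window of the members, by subfamily; each point is 1 window, coloured by the called region it overlaps, and the dashed line is the median of all protein-coding windows (13). Outside the S100a genes no window holds more than 5 CpG, and marked and unmarked windows overlap in every subfamily that has both.

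The AP-1 motif TGANTCA was found in 19 of the 61 windows (31.1%), beside 7.04% of all protein-coding windows, and the TATA motif TATAAA in 25 (41.0%), beside 12.7%. Both were most frequent in Sprr and fused S100 genes, at 9 and 10 of 14 Sprr windows and at 5 and 4 of 7 fused S100 windows. Lce windows held no TGANTCA (0 of 20) and 4 had TATAAA. Windows of related neighbouring genes are alike in sequence, so their matches are not independent. The windows of Sprr2d and Sprr2e, which hold both motifs, were 89.0% identical, beside a median of 61.7% over all pairs of Sprr2 windows. A match is a run of letters in this window and does not show that a factor binds there.

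The complex's shares of 30.8% and 4.62% were set beside genes of terminal differentiation that lie elsewhere in the genome. Of 36 listed suprabasal and barrier genes, 30 (83.3%) had H2AK119ub and 7 (19.4%) had H3K27me3, each of these 7 together with H2AK119ub. The shares of all protein-coding genes were 57.1% and 24.7%, so that the H3K27me3 share of this list was below them. Krt1, Krt2 and Krt77 lay in a 137 kb H2AK119ub region on chromosome 15, and Alox12b and Aloxe3, the lipoxygenases of barrier lipids, in regions of 55.9 kb and 11.6 kb for the 2 marks. Abca12, Dsg1a, Dsg1b, Lipk, Lipm and Lipn had neither mark. Members had a median length of 1989 bp and these 36 genes one of 17459 bp, and the difference in marking was not tested. Among the usual suprabasal markers, Krt10 and Lor had both marks, Krt1 and Ivl had H2AK119ub alone and Flg had neither, while the basal markers Krt5, Krt14, Itga6, Itgb4 and Col17a1 all had H2AK119ub and none had H3K27me3. Region lists hold no expression, so the sorted cell type was not checked by these genes.

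Of 24 listed genes for regulators of the complex, 20 (83.3%) had H2AK119ub and 7 (29.2%) had both marks, beside 57.1% and 21.1% of all protein-coding genes. Gata3 and Satb1 were among those with both, in H3K27me3 regions of 33.3 kb and 10.9 kb. Satb1 encodes a chromatin organiser that shapes the folding of this locus. Notch1, Grhl3, Cebpb and Cebpa had the widest regions with H2AK119ub alone, from 162 kb at Notch1 to 48.7 kb at Cebpa. Trp63, the master regulator of stratified epithelium, Smarca4 and Arnt were among those with neither mark at their ends.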

How the data were processed

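Basal epidermal progenitors were profiled by ChIP-seq for H2AK119ub and H3K27me3, with libraries from 5 ng of DNA and single reads of 75 nt, per the labels' protocols. The authors deposited 1 region list per mark, whose columns are positions in bp (chromosome, start, end), per the file headers. Per the submitters' processing notes, Bowtie2 2.3.3.1 and SAMtools 1.9 were used with build mm10; these notes carry no roles. Which caller and cutoffs were used, whether the input served as control and whether libraries were merged is not given in the sources used here. Regions may be more or fewer, or wider, under other choices, so covered lengths are not amounts of a mark and the lists are not compared in size.

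Starts were read as counted from 0 and printed as counted from 1, which leaves them uncertain by 1 bp. Genes, starts and promoter windows came from RefSeq tables of GRCm38.p6, the build of mm10. All 65 members matched by symbol, and 57 had a listed start and strand (61 windows). The others were S100a14, S100a2, Pglyrp4, Pglyrp3, Lce1f, Kprp, Crct1 and S100a10. A gene is marked when a region shares at least 1 bp with the stretch within 1 kb of either end; the width given is that of the widest such region. Every member is named or counted; from each list up to 4 genes per class, those with the widest regions, were named (all where neither mark was found at 6 or fewer), as were the 5 nearest genes on each side and the other genes inside. Members, subfamilies and gene lists were chosen with earlier results of these data known; the stretches used for coverage, the limit of 5 kb for short genes, the sequences shown and the ranking of region-free stretches were chosen with these values in view. Some regulators in the lists are counted but not reported here by name. No test was made, because there is 1 list per mark and neighbouring genes share regions. Other settings tried were windows of 0, 5 and 10 kb, the whole gene, both ends, 5′ ends, an overlap of 500 bp, wide regions only, equal list sizes and other limits of the complex. Interval counting was tested on simulated data. Python 3.11.15 with pandas 2.3.3 and matplotlib 3.10.9 was used.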

Additional observations from a re-analysis of the deposited data

How the results depend on the processing

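No paired analysis was possible because the deposited lists hold no values per library, and for the same reason no replicate could be left out. Counts below are of members with a region at an end, set against 20 for H2AK119ub and 3 for H3K27me3. Windows of 5 kb and 10 kb gave 5 and 6 members with H3K27me3 (4 and 5 of them Lce genes), or 7.69% and 9.23%. The shares of all protein-coding genes were then 31.0% and 36.4%. With 10 kb H2AK119ub was found at 5 fused S100 genes and 1 Sprr gene, and at 43.1% of members beside 66.9% of all protein-coding genes. Requiring a mark at both ends left 1 Lce gene with H2AK119ub, and none of the 8 other members (0) with H3K27me3. At 5′ ends alone 2 of the other members had H2AK119ub, where 4 of those 8 have no listed start. Keeping only regions at least as wide as the list median, or equal list sizes, gave 13 members with H2AK119ub, of which 1 was a fused S100 gene, 1 an Lce gene and 2 other members, and the wider H3K27me3 regions left 0 of the other members, since the region at Lor is narrow. H2AK119ub covered 10.6% of the complex from Lor to Tchhl1, without the outer S100a genes, 10.6% when widened by 100 kb on both sides, and 6.53% with wide regions or equal lists, against 9.58%. H3K27me3 covered 2.06%, 0.97% and, with wide regions, 0.802%, against 0.938%. Of 116 values under alternatives, 91 were counts within 1.5 times the count given or coverages equal to it. The other 25 were counts beyond that or coverages that differed at all. In every alternative the share of members was below that of all protein-coding genes for both marks. Depth and calling thresholds are unknown and limit every absence reported.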

Other observations

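Other gene families with epidermal or hair members were marked to different extents by the same rule. Of 56 keratin-associated protein genes, which encode the matrix of hair and have a median length of 833 bp, 18 (32.1%) had H2AK119ub and 14 (25%) had H3K27me3. Krtap5-1 and Krtap5-4 carried both, in regions of 32.4 kb and 22.6 kb on chromosome 7, and Krtap5-2, Krtap5-3, Krtap5-5 and Krtap9-3 had H3K27me3 alone. The 27 kallikrein genes had symbols of Klk followed by a digit or b. They encode secreted proteases and include those of skin shedding as well as the Klk1b genes. Of them 18 (66.7%) had H2AK119ub and 4 (14.8%) had H3K27me3, and Klk5, Klk6, Klk7 and Klk8 shared a 45.8 kb H2AK119ub region. Of 53 keratin genes, 52 (98.1%) had H2AK119ub and 26 (49.1%) had H3K27me3. Clade B serpin genes had the fewest marks of these families, with H2AK119ub at Serpinb6c and Serpinb1a (2 of 28, 7.14%) and H3K27me3 at none of the 28. The complex had 30.8% and 4.62%, and all protein-coding genes had 57.1% and 24.7%. These differences were not tested, since genes of a cluster share regions.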
